A study of Homo sapiens with 4 samples.

Results

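The genes of MHC class I antigen presentation were followed in ribosome footprints of Hermes 4B cells, an immortalised line of human skin melanocytes labelled as wild type. The members were 9 genes chosen by name for their role: HLA-B, HLA-C, B2M, TAP1, TAP2, TAPBP, PSMB8, PSMB9 and NLRC5, out of 14355 gene names in the tables. Coding-sequence reads of all transcripts with the same gene name were added up, and 3 of the 9 members (HLA-B, HLA-C and NLRC5) had enough reads to be tested. The cells had received siRNA at 25 to 50 nM, directed at CDH3-AS1 (a noncoding transcript antisense to CDH3, the P-cadherin gene) or a control siRNA. All of them were grown with the phorbol ester TPA, endothelin-1, cholera toxin and stem cell factor. There were 2 libraries of each kind, and batches 1 and 2 each held 1 of them. Library totals were 6759850 and 2858835 reads for CDH3-AS1 siRNA replicates 1 and 2, and 2034854 and 5994485 reads for control siRNA replicates 1 and 2. Whether replicates were separate cultures is not stated in the labels, and the spread behind the p-values may therefore be technical. The culture was 1 cell line with 1 named siRNA target, and the knockdown of CDH3-AS1 itself was not analysed here.

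MHC class I molecules show peptides from inside the cell to CD8 T cells. Proteasomes cut proteins into peptides, and in cells exposed to interferon the subunits PSMB8 and PSMB9 replace their constitutive counterparts. The TAP1-TAP2 transporter carries the peptides into the endoplasmic reticulum, where tapasin, the product of TAPBP, helps to load them on a heavy chain such as HLA-B or HLA-C bound to beta-2 microglobulin, the product of B2M. NLRC5 is the transactivator that drives transcription of class I genes through the conserved SXY box of their promoters. Melanocytes and melanoma cells raise this pathway in response to interferon gamma.

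The stretches upstream of HLA-B and HLA-C are shown because these were the members whose footprints differed most with the siRNA, and because they show how alike the genes are. They are the 250 bases before each RefSeq start on GRCh38.p14, chr6:31357180-31357429 for HLA-B and chr6:31272093-31272342 for HLA-C. Both lie on the minus strand and read 5′ to 3′ towards the gene. Capitals mark matches to GAANNGAAA (interferon regulatory factors), GGGNNNNNCC (NF-kB), TGACG (the core of a CRE, as in the X box) and CCAAT, searched on both strands, and overlapping matches run together.
HLA-B: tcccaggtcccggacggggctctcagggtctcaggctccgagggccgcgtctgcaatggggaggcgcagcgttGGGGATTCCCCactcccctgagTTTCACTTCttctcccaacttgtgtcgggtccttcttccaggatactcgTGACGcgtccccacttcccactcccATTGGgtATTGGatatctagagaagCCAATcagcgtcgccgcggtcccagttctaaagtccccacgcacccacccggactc
HLA-C: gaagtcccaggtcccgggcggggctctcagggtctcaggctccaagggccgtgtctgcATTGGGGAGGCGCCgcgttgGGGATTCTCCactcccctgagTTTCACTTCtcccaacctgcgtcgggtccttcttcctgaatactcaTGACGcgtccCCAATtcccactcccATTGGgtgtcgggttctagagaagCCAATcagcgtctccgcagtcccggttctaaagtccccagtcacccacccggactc

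The aligned bases of these stretches were 91.9% identical, 226 of 246. Each held 1 match to the interferon regulatory factor motif, 155 to 147 bases before the start in HLA-B and 151 to 143 bases in HLA-C. That motif was found in 6.56% of 34788 RefSeq promoter stretches of 250 bases, NF-kB in 54.4%, TGACG in 21.2%, CCAAT in 32.0% and the STAT motif TTCNNNGAA, which was in neither stretch, in 6.57%. Of the 9 members 8 had a promoter entry, and among the others TAP2 also held a match to GAANNGAAA. Only 1 spacing of GAA and GAAA was searched, and the 6.56% holds for that spacing. The stretches of B2M, TAP1 and TAPBP hold GAA and GAAA further apart, on the other strand in TAP1, and these were not counted. A missing match therefore does not show that a member lacks an interferon element. A match describes the letters and is not a binding site.

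HLA-B, a class I heavy chain on chromosome 6 at 31353875 to 31357179, had more footprints with CDH3-AS1 siRNA in both batches. It had 661 and 239 CPM (coding reads scaled to an equal coding total in each library) with CDH3-AS1 siRNA in batches 1 and 2, against 219 and 86 CPM with control siRNA. Both CDH3-AS1 siRNA libraries stood above both controls, although the batch 2 library was only just above the batch 1 control. Within batches the level was 3.02 and 2.78 times the control. Means were 450.2 ± 299 CPM with CDH3-AS1 siRNA and 152 ± 93.8 CPM with control siRNA (SD, n = 2 each). Of all 10469 genes tested, 11.2% had both CDH3-AS1 siRNA libraries above both controls.

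The log2 fold change of HLA-B was 1.61 (SE 0.62), not past the threshold of 0.05 in edgeR's quasi-likelihood model (adjusted p = 1.00 over the genes tested). With the batch as a replicate block it was 1.58 (SE 0.25) and passed (adjusted p = 1.85e-07), with the ninth-smallest p of all genes. Without the block edgeR called 0% of genes, and with it 0.927% were called higher, 2 of the 9 members among them. DESeq2 with the block called HLA-B too (adjusted p = 4.79e-06). Leaving out 1 library unbalances the batches and moved the value. It was 0.72 without the CDH3-AS1 siRNA library of batch 1 and 2.15 without that of batch 2, and 2.45 without the control of batch 1 and 1.10 without that of batch 2. In footprints of bulk culture, more ribosomes per RNA, more RNA per cell and more cells with the RNA cannot be told apart.

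HLA-C, the heavy chain that natural killer cells also read, lies at 31268749 to 31272092 on the same chromosome. It had 575 and 257 CPM with CDH3-AS1 siRNA, against 301 and 159.9 CPM with control siRNA. It was higher in each batch, at 1.91 and 1.61 times the control, but the groups overlapped, since the batch 1 control was above the batch 2 CDH3-AS1 siRNA library. The log2 fold change was 0.89 (SE 0.50) and did not pass edgeR's test without the block (adjusted p = 1.00). With the block it was 0.85 (SE 0.24) and passed (adjusted p = 0.0289 by edgeR), a call that DESeq2 with the block did not make (adjusted p = 0.0956). It was 0.22 without the CDH3-AS1 siRNA library of batch 1 and 1.35 without that of batch 2, and 1.44 without the control of batch 1 and 0.53 without that of batch 2.

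**Figure D1:**
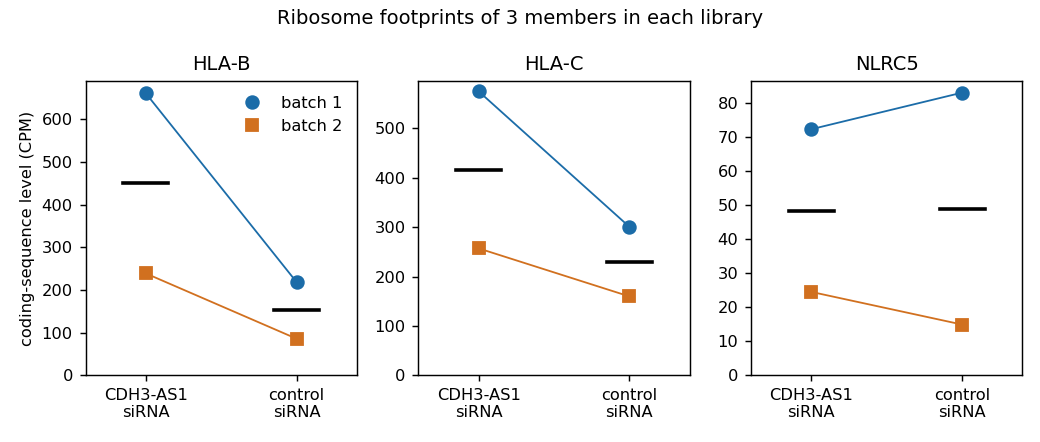
Coding-sequence level (CPM, vertical axis from 0) of HLA-B, HLA-C and NLRC5 in the 4 libraries, with CDH3-AS1 siRNA left and control siRNA right in each panel. Points are libraries, lines join those of a batch and black bars are group means (n = 2). HLA-B and HLA-C are higher with CDH3-AS1 siRNA in both batches, NLRC5 in batch 2 only, and batch 1 lies above batch 2 in every panel.

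The balance between the 2 heavy chains differed with the siRNA in each batch, and their order depended on the scale. In RPKM, which also divides by the length of the coding sequence, HLA-B stood at 619.5 and 214 and HLA-C at 479 and 208 with CDH3-AS1 siRNA. With control siRNA HLA-B stood at 212 and 80.5 RPKM and HLA-C at 241 and 133 RPKM. Per length HLA-B was thus above HLA-C in both CDH3-AS1 siRNA libraries, narrowly in batch 2, and below it in both controls. By reads not divided by length it was above HLA-C only in the CDH3-AS1 siRNA library of batch 1. The ratio of HLA-B to HLA-C coding reads was 1.15 and 0.93 with CDH3-AS1 siRNA, against 0.727 and 0.538 with control siRNA. The mean log2 ratio differed by 0.73 (0.66 in batch 1 and 0.79 in batch 2), and the exact permutation test, two-sided, gave p = 0.333, the smallest that 2 libraries against 2 allow. Reads that fit several class I genes can have been split between them, so this ratio is uncertain.

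HLA-B and HLA-C together took 0.124% (95% Clopper-Pearson interval 0.121 to 0.126) and 0.0496% (0.0470 to 0.0524) of coding reads in the CDH3-AS1 siRNA libraries. In the controls they took 0.0519% (0.0487 to 0.0553) and 0.0246% (0.0233 to 0.0259). The intervals cover counting error only. Within each batch the share was higher with CDH3-AS1 siRNA, and the batch 2 CDH3-AS1 siRNA library overlapped with the batch 1 control.

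The deposited tables listed 8 transcripts of HLA-B, 6 of HLA-C and 4 of NLRC5. Their sequences can be shared, so the reads of one can belong to another. ENST00000359635, ENST00000425848 and ENST00000450871 of HLA-B all have a coding sequence of 1089 bases. ENST00000412585 has the same length but was almost empty, with 0 and 3 coding reads with CDH3-AS1 siRNA and 2 and 1 with control siRNA. Whether these are isoforms or copies of 1 gene on different reference sequences is not stated, so the split between them does not show isoform use. Of the 6 HLA-B transcripts with at least 10 coding reads in each library, 6 were higher with CDH3-AS1 siRNA in batch 2 and 4 in batch 1. The one with most reads, ENST00000359635, had 385 and 95.4 CPM with CDH3-AS1 siRNA, against 77.6 and 29.9 CPM with control siRNA, 4.96 and 3.20 times the control. ENST00000425848 had 125 and 70.9 CPM, against 19.5 and 33.6 CPM. Both were thus higher with CDH3-AS1 siRNA in each batch. ENST00000450871 went the other way in batch 1, with 49.8 and 42.5 CPM with CDH3-AS1 siRNA, against 55.9 and 8.35 CPM with control siRNA. Taking the transcript with most reads in place of the sum gave HLA-B a log2 fold change of 2.19 (SE 0.74, adjusted p = 1.00 by edgeR without the block).

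The makeup of HLA-B reads differed between libraries of the same siRNA. ENST00000359635 held 58.2% (95% interval 56.7 to 59.7) and 39.9% (36.04 to 43.9) of them in the CDH3-AS1 siRNA libraries, against 35.5% (30.8 to 40.4) and 34.7% (30.5 to 39.1) in the controls. ENST00000425848 held 18.96% and 29.65% with CDH3-AS1 siRNA, against 8.93% and 39.05% with control siRNA. ENST00000450871 held 7.53% (6.75 to 8.37) and 17.8% (14.9 to 21.0) with CDH3-AS1 siRNA, against 25.6% (21.4 to 30.1) and 9.71% (7.22 to 12.7) with control siRNA. Control siRNA replicate 1 was the library with the highest share of that transcript and of ENST00000696558, which held 14.9% there and at most 8.15% in the others. The same library held skeletal muscle transcripts, with 4186 CPM summed over 15 markers and at most 13.2 CPM in any other library. Within batch 2, which does not hold that library, HLA-B was 2.78 times the control, with 1 library of each siRNA. Whether the muscle transcripts bear on the makeup or the level of HLA-B was not tested.

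**Figure D2:**
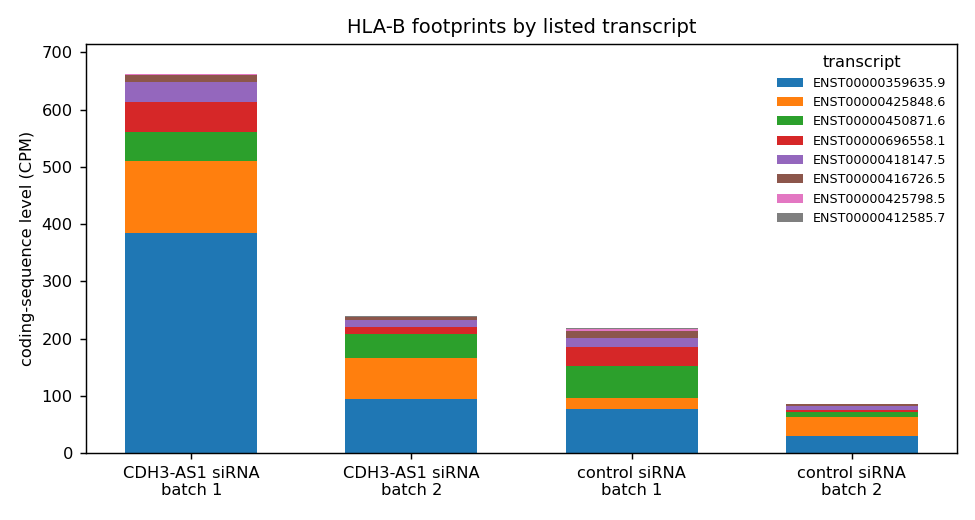
HLA-B coding-sequence level (CPM, vertical axis from 0) in the 4 libraries, stacked by the transcript to which the deposited tables assign the reads. ENST00000359635 is the largest piece with CDH3-AS1 siRNA in both batches and in the batch 1 control. ENST00000450871 is a larger piece in the batch 1 control than in the batch 2 control.

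In HLA-C 1 transcript, ENST00000419135, held most reads in every library, between 86.1% and 89.7%. It had 510 and 231 CPM with CDH3-AS1 siRNA, against 259 and 139.7 CPM with control siRNA. All 3 HLA-C transcripts with at least 10 reads in each library were higher with CDH3-AS1 siRNA in both batches. The leading transcript of HLA-C thus held a similar share in every library.

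NLRC5, the class I transactivator, lies on chromosome 16 at 56989557 to 57083520 and differed in direction between the batches. It had 72.3 and 24.5 CPM with CDH3-AS1 siRNA, against 83.0 and 14.9 CPM with control siRNA. It was 0.871 times the control in batch 1 and 1.64 times in batch 2, and the groups overlapped. Means were 48.4 ± 33.8 CPM and 49.0 ± 48.2 CPM (SD, n = 2 each). The log2 fold change was 0.07 (SE 0.81, adjusted p = 1.00 by edgeR), and 0.25 with the block (SE 0.31, adjusted p = 0.906 by edgeR). Its direction depended on the libraries used, at -0.89 without the CDH3-AS1 siRNA library of batch 1 and 0.62 without that of batch 2, and at 1.75 without the control of batch 1 and -0.69 without that of batch 2. Per length NLRC5 was far below the heavy chains, at 20.6 and 7.08 RPKM with CDH3-AS1 siRNA and 21.9 and 4.53 RPKM with control siRNA.

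NLRC5 was also the tested member with the most reads in its 5′ UTR. These made up 10.2% of its reads (95% interval 7.76 to 13.2) and 13.5% (6.68 to 23.5) with CDH3-AS1 siRNA, against 11.5% (7.16 to 17.2) and 5.62% (1.85 to 12.6) with control siRNA. These intervals cover counting error only, and a difference between the siRNAs was not tested. All 53, 10, 20 and 5 such reads were listed for ENST00000539881, whose 5′ UTR is 260 bases long. Over all genes the 5′ UTR took between 3.81% and 7.09% of a library's reads. HLA-B had 0 reads in either UTR in any library, and HLA-C had at most 3 in its 5′ UTR and 14 in its 3′ UTR.

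All 3 tested members were lower in batch 2 than in batch 1. With the siRNA in the model, the log2 fold change of batch 2 over batch 1 was -1.38 (SE 0.24) for HLA-B, -1.01 (SE 0.24) for HLA-C and -1.96 (SE 0.32) for NLRC5. Their adjusted p were 1.06e-06, 5.82e-04 and 4.62e-08 by edgeR, and 6.3% of all genes were called lower in batch 2. For HLA-C and NLRC5 the batches differed by more than the siRNAs did. HLA-B in batch 2 was at 0.362 of its batch 1 level with CDH3-AS1 siRNA and at 0.393 with control siRNA. What the batches differed in beyond their number was not stated in the labels.

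The other 6 members had fewer than 10 coding reads over all libraries together, and no fold is given for them. B2M, the light chain at 44711517 on chromosome 15, had 1 coding read, in CDH3-AS1 siRNA replicate 1, and 21 reads in its 3′ UTR over all libraries. TAPBP had 5 and 1 coding reads with CDH3-AS1 siRNA and 0 in both controls. TAP2 had 1, and PSMB9 had 0 with 2 reads in its 3′ UTR. TAP1 and PSMB8 had no row. The RPKM values gave back each library's listed total to within 3.57e-05%, so transcripts without a row carried no counted reads. A count of 0 allows up to 3 reads, which is 0.473 and 1.15 CPM with CDH3-AS1 siRNA and 1.63 and 0.533 CPM with control siRNA.

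For the 5 of these members in the MHC, counts at or near 0 were shared by their neighbours. TAP1, TAP2, TAPBP, PSMB8 and PSMB9 lie in the MHC on chromosome 6. Of 147 protein-coding genes there, from GABBR1 at 29602238 to KIFC1 at 33391461, 127 (86.4%) had no coding read in any library, against 270 of 902 (29.9%) on the rest of chromosome 6. At least 100 coding reads were listed for 4 (2.72%) of them, among them HLA-B, HLA-C and the stress ligand MICA, against 450 (49.9%) elsewhere on the chromosome. Genes that every cell uses were at 0 as well: the beta-tubulin TUBB, the ribosomal protein RPS18, the kinase subunit CSNK2B, the RNA helicase DDX39B and the chaperone partner BAG6 had no coding read. These 5 were chosen after their values were seen. The levels of these 5 members in the MHC are therefore listed at or near 0 together with most genes of the region. Those levels were not measured well enough to say whether the siRNA changed them. HLA-B and HLA-C lie in the same region, and whether their own counts are complete was not tested.

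**Figure D3:**
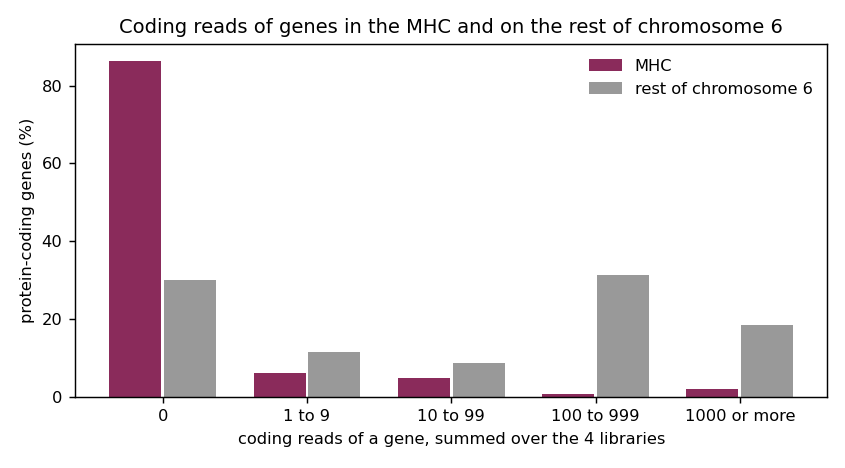
Share of protein-coding genes (%, vertical axis from 0) by the coding reads a gene had over the 4 libraries, for the 147 genes of the MHC and the 902 on the rest of chromosome 6. In the MHC 86.4% of genes had no read, against 29.9% elsewhere.

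B2M lies outside that region. In its neighbourhood CTDSPL2, EIF3J, SPG11 and SORD had 536, 1041, 2108 and 1029 coding reads, while PATL2 had 5 and TRIM69 had 0. Whether these cells express PATL2 and TRIM69 was not tested, so their counts do not show a loss of reads around B2M. The cause of the low B2M count was not tested.

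No partner of the pathway that could be tested passed the threshold. Of a list of 38 partners 31 were tested, and 0 were called with or without the block. Their median log2 fold change was 0.15, against -0.03 over all genes tested, and 13 of the 31 (41.9%) were higher in both batches and 3 (9.68%) lower, against 26.5% and 27.8% of all genes. ERAP1, the aminopeptidase that trims peptides in the endoplasmic reticulum, had 344 and 359 CPM with CDH3-AS1 siRNA, against 192 and 231.5 CPM with control siRNA. Both CDH3-AS1 siRNA libraries stood above both controls, as in 11.2% of all genes tested. With the block its log2 fold change of 0.78 (SE 0.24) missed the threshold (adjusted p = 0.0698 by edgeR). Its relative ERAP2 had 68.2 and 51.7 CPM, against 45.6 and 32.9 CPM, and missed it too (adjusted p = 0.406). The lowest of the list was MR1, which presents metabolites of microbial vitamin synthesis, with 28.7 and 12.3 CPM against 33.1 and 27.2 CPM (adjusted p = 0.629 with the block).

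Chaperones of the loading complex were chosen to be named after their values were seen. Calreticulin, the product of CALR, had 3775 and 4607 CPM with CDH3-AS1 siRNA, against 2537 and 3129 CPM with control siRNA. Its log2 fold change was 0.61 in batch 1 and 0.61 in batch 2 (adjusted p = 0.0719 with the block by edgeR). TAPBPL, a second peptide editor related to tapasin, had 14.7 and 6.90 CPM, against 6.51 and 3.55 CPM, with an adjusted p of 0.493 with the block by edgeR. It rested on 12 reads in control siRNA replicate 1. PDIA3, the thiol oxidoreductase that works beside calreticulin, had 222 and 572 CPM against 236 and 454 CPM, lower in batch 1 and higher in batch 2.

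PSMB10, the immunoproteasome subunit encoded outside the MHC, was well covered. It and the subunits PSMB5 and PSMB7 were named for their role after their values were seen. PSMB10 had 194 and 91.6 CPM with CDH3-AS1 siRNA, against 170.4 and 62.0 CPM with control siRNA. With the block its log2 fold change was 0.41 (SE 0.26, adjusted p = 0.673 by edgeR). The constitutive subunits that the 3 immunoproteasome subunits replace were not called in either direction. PSMB5 had 232 and 185 CPM against 318 and 174 CPM, PSMB6 178 and 114 CPM against 273.5 and 129.7 CPM, and PSMB7 450 and 303 CPM against 532 and 280 CPM. Of 17 genes of the proteasome core and its assembly 15 were tested and 0 were called, with a median log2 fold change of -0.16. In both batches 1 (6.67%) was higher and 4 (26.7%) lower, against 26.5% and 27.8% of all genes.

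**Figure D4:**
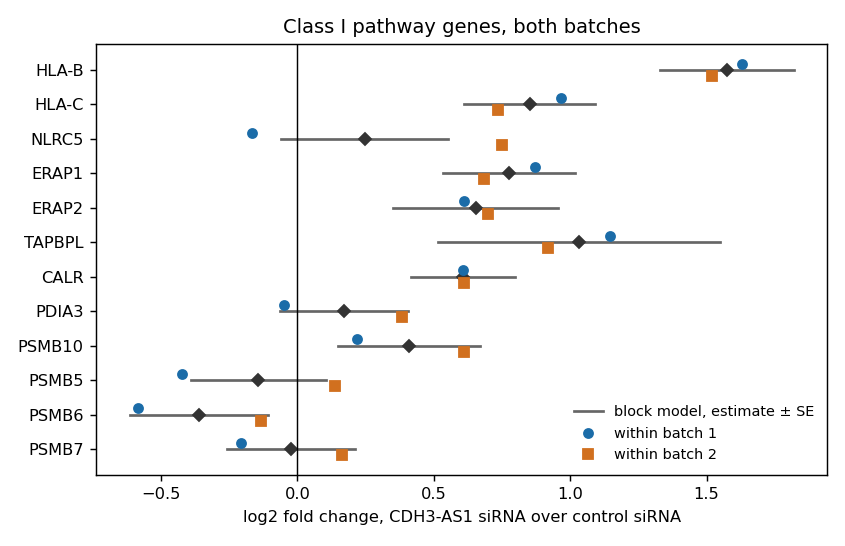
Log2 fold change of CDH3-AS1 siRNA over control siRNA (horizontal axis) for the 3 tested members and 9 genes of the pathway, within batch 1 (circles), within batch 2 (squares) and from the edgeR model with the batch as a block (diamonds, bars are ± SE). HLA-B and HLA-C lie right of 0 in both batches, NLRC5 straddles 0, and the constitutive subunits PSMB5, PSMB6 and PSMB7 lie near or left of it.

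The signalling genes that control class I transcription also showed no call. Of 22 interferon receptors, kinases and transcription factors 19 were tested, with a median of 0.10. In both batches 6 (31.6%) were higher and 2 (10.5%) lower, against 26.5% and 27.8% of all genes. IRF1, the interferon-induced activator of class I promoters, had 68.4 and 13.0 CPM with CDH3-AS1 siRNA, against 39.6 and 11.4 CPM with control siRNA. With the block its log2 fold change was 0.56 (SE 0.34, adjusted p = 0.644 by edgeR). IFNAR1, a receptor chain for type I interferons, was lowest, with 17.8 and 19.2 CPM against 18.5 and 62.4 CPM (adjusted p = 0.274 with the block by edgeR). Without CDH3-AS1 siRNA replicate 1 the median of this list was -0.25.

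Antiviral effectors of the interferon response held called genes. With the block 11 of 39 tested genes of this list were called higher and 0 lower. Of all 10469 genes 97 (0.927%) were called higher and 73 lower. The median log2 fold change of the list was 0.59 (0.46 in batch 1 and 0.73 in batch 2). In both batches 28 (71.8%) were higher and 0 lower, against 26.5% and 27.8% of all genes. IFITM1, which blocks entry of viruses, had 1105 and 393.5 CPM with CDH3-AS1 siRNA, against 663 and 105 CPM with control siRNA (adjusted p = 5.81e-06 with the block by edgeR). GBP1, a GTPase that attacks intracellular microbes, had 137 and 44.1 CPM against 65.7 and 9.06 CPM (adjusted p = 3.29e-05). TRIM22, an antiviral ubiquitin ligase, had 277 and 79.7 CPM against 184.5 and 26.8 CPM (adjusted p = 0.00577). OAS3, a sensor of double-stranded RNA, had 691 and 210.4 CPM against 1055 and 150 CPM. Without the block 0 were called, and the median was -0.12 without the CDH3-AS1 siRNA library of batch 1, which leaves the batches unbalanced.

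Class II genes had almost no reads. Of 13 genes 9 had no coding read, and the single one tested, the invariant chain CD74, had 2.52 and 0 CPM with CDH3-AS1 siRNA, against 5.97 and 0 CPM with control siRNA. Most class II genes lie in the MHC region described above. As a comparison for surface proteins, 20 glycoproteins of the plasma membrane and lysosome were listed. Their median log2 fold change was 0.13 over 19 tested genes, and 0 were called. CD59, with 8 coding reads over all libraries, was not tested. The transferrin receptor TFRC had 139.6 and 169.4 CPM against 173 and 342 CPM (adjusted p = 0.271 with the block by edgeR), and LAMP1, a lysosomal membrane protein, 1314 and 1694 CPM against 986 and 1316 CPM (adjusted p = 0.459).

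The genes whose pattern over the 4 libraries was most like the mean of the 3 tested members were APOL6, IFIT3, UBE2L6, UNC93B1 and TMEM62. Likeness was the root mean square difference of centred log2 CPM, among genes of at least 20 CPM on average. In batches 1 and 2 the members' mean was 1.13 and -0.26 with CDH3-AS1 siRNA, against 0.35 and -1.21 with control siRNA. It thus differed more between batches than between siRNAs, so a like gene need not share a difference with the siRNA. APOL6, an interferon-induced apolipoprotein L, had 190 and 70.1 CPM with CDH3-AS1 siRNA, against 104 and 33.4 CPM with control siRNA, and differed by 0.06 (log2) from the members' mean. IFIT3, an antiviral protein, differed by 0.10, with 1527 and 648 CPM against 963 and 280.4 CPM. UBE2L6, the conjugating enzyme for ISG15, differed by 0.14, UNC93B1, which carries Toll-like receptors to endosomes, by 0.15 and TMEM62 by 0.15. The members themselves differed from their own mean by 0.25 (HLA-C), 0.34 (HLA-B) and 0.44 (NLRC5). With 4 libraries such likeness is a description only.

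The cells carried the markers of melanocytes, with all 10 detected and a summed level of 21910 and 31970 CPM with CDH3-AS1 siRNA, against 24070 and 40700 CPM with control siRNA. White blood cells carry abundant class I, and their markers PTPRC, CD3E and NKG7 were at 0 in every library. The summed level of the white blood cell markers was 1239 and 650.2 CPM with CDH3-AS1 siRNA, against 828 and 789 CPM with control siRNA. CD68, a lysosomal protein, gave nearly all of it, with 1237 and 650.2 CPM against 817 and 788.5 CPM. Of the 5 endothelial markers PECAM1 was at 0, and the sum was at most 11.9 CPM. Of the 8 fibroblast markers COL3A1 was at 0, and the sum was 5.36 and 1.92 CPM with CDH3-AS1 siRNA against 497 and 0.533 CPM with control siRNA. Keratinocyte markers summed to at most 36.4 CPM, with KRT5, KRT15 and DSG3 at 0. The 15 muscle markers summed to 4186 CPM in control siRNA replicate 1 and to at most 13.2 CPM in any other library. TTN alone had 1783 CPM in control siRNA replicate 1, while TNNT3, TNNI2 and MYLPF were at 0 in every library. The part of other cells in the levels of the class I genes was not tested.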

How the data were processed

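Ribosome footprints of 4 libraries were analysed, 2 with CDH3-AS1 siRNA and 2 with control siRNA. Per the labels' protocols, cycloheximide (100 µg/mL) held ribosomes on the RNA and RNase I trimmed it. Per the file headers, the deposited tables give the count of reads per transcript in the coding sequence and each UTR, and the authors' RPKM of each region. Checked on the values, the RPKM divide by all of a library's reads, UTRs included. The submitters' processing notes name hg38 and DESeq2. Not given in the sources used here are the aligner, counting tool, annotation, read filters and strand setting, so reads shared by HLA genes, transcripts or antisense partners can be split or counted more than once. No RNA-seq was analysed here.

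Coding counts were summed by gene name, filtered with filterByExpr (minimum count 10, minimum total 15), which kept 10469 genes, and tested with edgeR 4.0.16 in R 4.3.3 (TMM, quasi-likelihood test, prior count 2, Benjamini-Hochberg over all genes, threshold 0.05). CPM are scaled to the library's coding reads without TMM, and RPKM of a gene are summed over its transcripts. The SE of an edgeR log2 fold change was derived from the test, as its absolute value divided by the square root of the F statistic. The model had no covariate. Libraries with the same number share a labelled batch, and their deviations from group means correlated (r = 0.58), so a second model, which adds the batch as replicate block, is given beside it, with 1 residual degree of freedom per gene against 2. Replicates differed by far more than sampling noise (chi-square per degree of freedom 36.4 with CDH3-AS1 siRNA and 44.0 with control siRNA). DESeq2 1.42.0 and limma 3.58.1 were alternatives. Gene coordinates and promoter stretches are RefSeq's on GRCh38.p14. The members, lists and tests were chosen with earlier results of these data known. Genes named from a list were those called, and the 3 highest and 3 lowest by log2 fold change with at least 20 CPM on average and 10 reads in each library, of which some are given. Apart from the members, the 5 most alike genes and the cell markers, all other genes named were chosen after their values were seen.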

Additional observations from a re-analysis of the deposited data

Results flagged for a closer look

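NLRC5 went in opposite directions in the batches, at 0.75 (log2, CDH3-AS1 siRNA over control siRNA) in batch 2 and -0.17 in batch 1. Each batch holds 1 library of each siRNA, so this difference was not tested.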

How the results depend on the processing

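HLA-B and HLA-C were higher with CDH3-AS1 siRNA under each alternative run, between 0.72 and 2.45 (log2) for HLA-B and between 0.22 and 1.44 for HLA-C, and passed the threshold only with the replicate block. The median of the tested members ran from 0.22 to 1.75 when 1 library was left out, and was 0.64 with HLA-B and HLA-C summed. With no filter it was 0.58 over 6 members, where B2M, TAP2 and TAPBP entered with 1, 1 and 6 coding reads. All of those reads were in CDH3-AS1 siRNA libraries, which fixed the direction of these 3, so that median is no sign of a difference. NLRC5 ran from -0.89, without the CDH3-AS1 siRNA library of batch 1, to 1.75, and was -0.69 without the control of batch 2. Genes called over all genes were 0 by edgeR without the block (225 at an unadjusted p under 0.05), 170 with the replicate block, 2 by DESeq2, 55 by DESeq2 with the replicate block, 52 with no filter on low counts, and between 0 and 73 when 1 library was left out, 73 being without control siRNA replicate 2. Scaling by DESeq2 size factors or library totals, at least 50 reads in each library, the transcript with most reads, all regions and limma on log2(RPKM + 1) or log2(RPKM + 0.1) called 0, and the cause of the other counts was not tested. List medians changed sign without 1 library: the proteasome core ran from -0.38 to 0.087, the plasma membrane glycoproteins from -0.11 to 0.53 and class II (CD74 alone) from -1.62 to 2.23, each opposite in sign without control siRNA replicate 1. The interferon receptor list ran from -0.25 to 0.49 and the effector list from -0.12 to 1.45, each below 0 without CDH3-AS1 siRNA replicate 1. The few reads of 6 members and the 2 libraries a group limit what can be seen.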

Other observations

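Coding reads were also at 0 for pathway genes outside the MHC. Calnexin (CANX), the chaperone that first binds a new heavy chain, the proteasome activator subunits PSME1 and PSME2, the interferon-signalling factor IRF9 and the constitutive proteasome subunits PSMA2 and PSMB3 had 0 coding reads in every library. PSMA2 and PSMB3 are parts of the proteasome core that every cell uses, so a level of 0 in these tables does not show that a gene is silent. The nonclassical heavy chains HLA-E and HLA-F had 11 and 29 coding reads over all libraries. HLA-E had 10 and 0 with CDH3-AS1 siRNA, against 1 and 0 with control siRNA, and HLA-F had 13 and 3, against 5 and 8.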
